A study of Mus musculus with 6 samples.

Results

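The core circadian clock loop was followed in inguinal white adipose tissue (iWAT) through 10 genes chosen by name. These were the activators Arntl, Clock and Npas2, the Period repressors Per1, Per2 and Per3, the Cryptochrome repressors Cry1 and Cry2, and the Rev-erb receptors Nr1d1 and Nr1d2. Each gene was read through every array probe that carries one of its RefSeq transcripts, which came to 1 probe per gene. All 10 genes were among the 15307 genes tested. RNA came from the iWAT of 10-week-old Zip13-KO mice and their WT littermates, with 3 arrays per genotype. ZIP13, encoded by Slc39a13, is a zinc transporter, and the Zip13-KO allele replaces exons 6 to 8 with a Neo cassette in every tissue of the mouse. Both genotypes had been backcrossed onto C57BL/6J and ate powdered food because some teeth of the mutants are missing. The animals lived under 12 hours of light a day, and the hour at which the tissue was taken is not given in the sources used here. Nor do the labels say that each array stands for a separate mouse, so p-values measure the spread between these arrays.

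The clock of mammalian cells is a feedback loop of transcription that turns over about once a day. BMAL1, the product of Arntl, pairs with CLOCK or its relative NPAS2 and binds E-boxes in the genes Per, Cry, Nr1d1, Nr1d2 and Dbp, which it switches on. PER and CRY proteins return to the nucleus and block that pair, while REV-ERBα (Nr1d1) and REV-ERBβ (Nr1d2) repress Arntl through response elements that the ROR receptors use to activate it. In a running clock Arntl therefore peaks at a different hour from Per, Nr1d1 and Dbp. Adipose tissue has such a clock, and REV-ERBα is known there as a regulator of brown and beige fat genes.

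In this 1-colour assay 1 labelled RNA was put on each array, and a brighter spot means more of the transcript that its probe binds. Values are log2 intensities, quantile normalized between the 6 arrays, and levels of different probes are not on 1 scale. A gene was called when limma gave an adjusted p under 0.05 and a change above 1.5-fold, 0.585 on the log2 scale. The median processed signal was 39.2 to 40.6 intensity units in WT and 33.2 to 35.0 in Zip13-KO, and 58.8% to 63.2% of spots were well above background. All arrays shared 1 slide and 1 scan. Zip13-KO replicates 2 and 3 lay in column 2 of the slide and the other 4 arrays in column 1. The probe for Slc39a13 read 11.29, 10.87 and 10.72 in WT and 6.76, 6.66 and 6.47 in Zip13-KO. Where this probe lies relative to the deleted exons was not determined.

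The promoters of the 5 genes whose genotypes did not overlap are shown first. Of these genes, Nr1d1 was not called. RefSeq promoters of build GRCm38.p6, 250 bases before and 50 after an annotated start, were at hand for 9 of the 10 genes, with 13 promoters in all. Per2 had none, so it was not searched. Capitals mark matches on either strand to the E-box CACGTG, its variant CACGTT, the D-box TTATGNAA, the ROR and REV-ERB half-site AGGTCA and its longer form TAGGTCA, or the cAMP response element TGACGTCA and its short form TGACG. The longer forms contain the shorter ones. The windows lie at chr7:113207261-113207560 on the plus strand (Arntl, its second annotated start), chr4:151044616-151044915 (Per3), chr2:92434020-92434319 (Cry2), chr11:98775328-98775627 (Nr1d1) and chr14:18239057-18239356 (Nr1d2), the last 4 on the minus strand.
Arntl: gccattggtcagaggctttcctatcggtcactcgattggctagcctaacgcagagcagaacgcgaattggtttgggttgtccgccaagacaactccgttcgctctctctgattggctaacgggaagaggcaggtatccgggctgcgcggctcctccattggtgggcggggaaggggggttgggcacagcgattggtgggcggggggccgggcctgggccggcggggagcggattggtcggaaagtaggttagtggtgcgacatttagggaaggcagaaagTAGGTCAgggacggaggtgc
Per3: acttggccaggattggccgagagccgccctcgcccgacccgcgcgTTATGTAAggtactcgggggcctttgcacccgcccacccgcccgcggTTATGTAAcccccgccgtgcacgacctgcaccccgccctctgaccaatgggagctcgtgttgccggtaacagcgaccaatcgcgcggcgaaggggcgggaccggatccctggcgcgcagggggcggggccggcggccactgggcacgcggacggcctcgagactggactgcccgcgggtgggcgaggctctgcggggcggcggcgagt
Cry2: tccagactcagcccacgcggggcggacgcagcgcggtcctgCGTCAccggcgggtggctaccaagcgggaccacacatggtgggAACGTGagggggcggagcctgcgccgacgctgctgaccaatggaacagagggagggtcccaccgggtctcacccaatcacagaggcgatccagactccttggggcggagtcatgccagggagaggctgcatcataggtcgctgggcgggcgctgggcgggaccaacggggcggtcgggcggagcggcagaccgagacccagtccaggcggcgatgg
Nr1d1: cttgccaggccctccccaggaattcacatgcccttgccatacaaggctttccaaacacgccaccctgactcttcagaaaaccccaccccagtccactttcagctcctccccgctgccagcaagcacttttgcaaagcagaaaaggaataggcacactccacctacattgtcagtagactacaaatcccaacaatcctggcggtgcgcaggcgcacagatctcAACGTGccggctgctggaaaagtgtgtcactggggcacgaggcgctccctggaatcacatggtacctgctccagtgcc
Nr1d2: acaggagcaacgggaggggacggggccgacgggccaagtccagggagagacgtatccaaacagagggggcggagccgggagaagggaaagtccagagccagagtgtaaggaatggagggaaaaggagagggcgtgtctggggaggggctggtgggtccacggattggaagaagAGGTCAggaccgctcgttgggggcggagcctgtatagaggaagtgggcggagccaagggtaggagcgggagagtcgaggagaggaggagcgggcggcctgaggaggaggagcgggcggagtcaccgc

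The Arntl window held TAGGTCA 31 bases into the transcript, a form found in 2.61% of 32851 promoters of the same length. AGGTCA alone stood in 16.3% of them, and among the clock genes in Arntl, Clock, Per1 and Nr1d2. The window at the other annotated start of Arntl held no match to any of these letters. A gene with several windows is named here when any of them matched. Per3 held the D-box, the element bound by DBP, TEF, HLF and NFIL3, at -205 and at -158 from its start. The D-box was found in 3.38% of promoters, and Per1 held it at -24. CACGTT, in 4.68% of promoters, stood in Cry1, Cry2 and Nr1d1, and CACGTG, in 7.15%, in Per1 and Cry1. TGACG was in 20.8% of promoters and in those of Per1, Cry1 and Cry2, while TGACGTCA, in 1.79%, had no match in these windows. A match describes letters in a window and is not evidence of binding.

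Of the 10 clock genes, 3 were called higher in Zip13-KO iWAT (Per3, Cry2 and Nr1d2), 1 was called lower (Arntl) and 6 were not called. Over all genes tested, 18.5% were called, 10.2% higher and 8.28% lower in Zip13-KO. In a list of 10 genes a single call moves the share a long way. Fitted over the 33047 kept probes, of which 15.3% were called, the same 4 genes passed. In 5 of the 10 genes every Zip13-KO array lay on 1 side of every WT array, against 55.1% of all genes, so lack of overlap alone was no commoner here. The median log2 fold change was 0.35 over the clock genes and -0.00 over all genes tested.

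**Figure D1:**
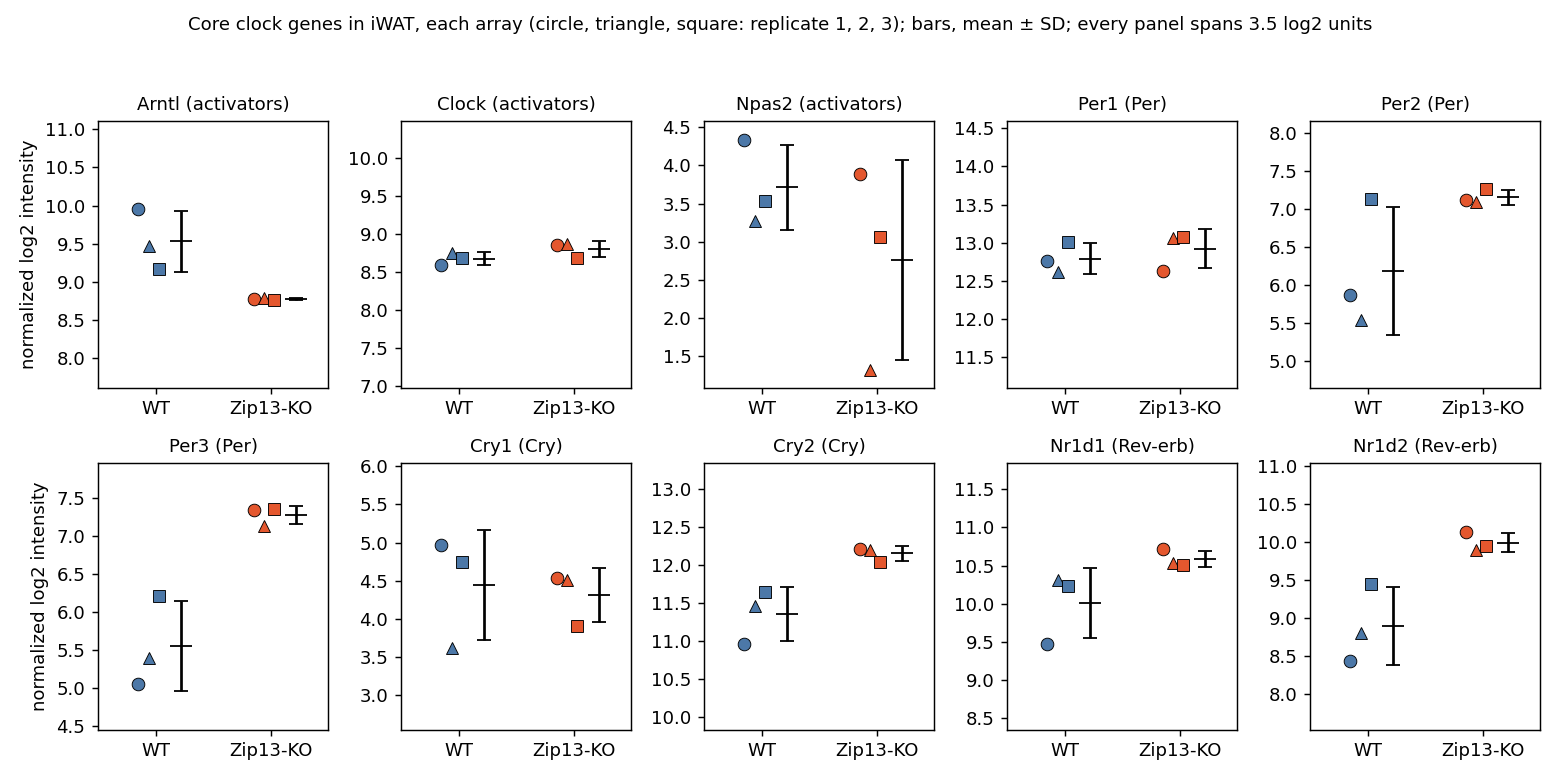
Normalized log2 intensity (y axis, every panel spanning 3.5 units) of each core clock gene on the 3 WT arrays (blue) and 3 Zip13-KO arrays (orange), with the mean and SD in black. The 3 Zip13-KO values of Arntl lie together at 8.75 to 8.78 below all WT values, and those of Per3, Cry2, Nr1d1 and Nr1d2 lie above all WT values.

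Among the activators, Arntl encodes BMAL1, the partner that CLOCK and NPAS2 share. It read 9.96, 9.47 and 9.16 on the WT arrays and 8.78, 8.78 and 8.75 on the Zip13-KO arrays. All 3 Zip13-KO values were below the lowest WT value, and they differed from each other far less than the WT values did. Over 3 arrays each, the mean ± SD was 9.53 ± 0.40 in WT and 8.77 ± 0.016 in Zip13-KO. The log2 fold change was -0.76 (SE 0.20, 95% confidence interval -1.24 to -0.28, limma adjusted p = 0.0307), a level 1.69-fold higher in WT. This call rested on few arrays. Without WT replicate 1 the change was -0.54, under the fold threshold (adjusted p = 0.0211), and the adjusted p rose to 0.0644 without WT replicate 2. Without Zip13-KO replicate 1, 2 or 3 it was 0.0896, 0.0857 or 0.0819.

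Clock encodes the usual partner of BMAL1. It read 8.59, 8.76 and 8.69 in WT and 8.85, 8.87 and 8.69 in Zip13-KO. The ranges overlapped, and the log2 fold change was 0.12 (SE 0.089, 95% confidence interval -0.09 to 0.34, adjusted p = 0.308). Npas2, which can stand in for CLOCK, was dim. Its probe read 4.34, 3.27 and 3.53 in WT and 3.89, 1.32 and 3.06 in Zip13-KO, and among the Zip13-KO arrays only replicate 1 was well above background. The log2 fold change of -0.96 had a 95% confidence interval of -2.58 to 0.66 (adjusted p = 0.296), too wide to tell a fall from no change. The intervals of Arntl and Clock did not overlap, and the difference between their changes was not itself tested.

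The Period genes encode repressors that BMAL1 and CLOCK switch on and that bind CRY. Per3 had the largest change of the 10 genes in this fit. It read 5.06, 5.40 and 6.22 in WT and 7.34, 7.14 and 7.35 in Zip13-KO, with no overlap. The log2 fold change was 1.72 (SE 0.29, 95% confidence interval 1.01 to 2.42, adjusted p = 0.01004), or 3.29-fold. Ranked by log2 fold change from the highest, Per3 stood at 78 among all 15307 genes tested, called or not. Per3 was called whichever of the 6 arrays was left out. The size of its change was smaller with other handling of the background. It was 1.09 with normexp, 1.19 with no background correction and 1.19 from the deposited table.

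Per2 moved in the same direction with a wider spread. It read 5.87, 5.54 and 7.13 in WT and 7.12, 7.09 and 7.26 in Zip13-KO. WT replicate 3 lay within the Zip13-KO values and the other 2 WT arrays far below them. The log2 fold change was 0.97 (SE 0.40, 95% confidence interval 0.00 to 1.94) and was not called (adjusted p = 0.105). Without WT replicate 3 it was 1.45 (adjusted p = 0.00723). Per1, the member of the family that also answers quickly to cAMP and glucocorticoids, read 12.75, 12.61 and 13.01 in WT and 12.62, 13.06 and 13.08 in Zip13-KO. The values overlapped, and the log2 fold change was 0.13 (SE 0.16, 95% confidence interval -0.27 to 0.53, adjusted p = 0.562).

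Of the Cryptochromes, which block BMAL1 and CLOCK directly, Cry2 was called and Cry1 was not. Cry2 read 10.96, 11.46 and 11.64 in WT and 12.21, 12.20 and 12.04 in Zip13-KO. Every Zip13-KO array was above every WT array, and the log2 fold change was 0.80 (SE 0.18, 95% confidence interval 0.35 to 1.24, adjusted p = 0.0214), or 1.74-fold. Without Zip13-KO replicate 1 or 2 the change stayed at 0.77, with adjusted p of 0.0744 or 0.0714. Cry1 was dim. It read 4.96, 3.62 and 4.75 in WT and 4.53, 4.51 and 3.90 in Zip13-KO, where replicate 3 was not well above background. Its log2 fold change of -0.13 had a 95% confidence interval of -1.05 to 0.80 (adjusted p = 0.813), so no direction could be read.

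The Rev-erb receptors sit on the other arm of the loop, as repressors of Arntl. Nr1d2 read 8.44, 8.81 and 9.46 in WT and 10.13, 9.89 and 9.95 in Zip13-KO, again without overlap. The log2 fold change was 1.09 (SE 0.25, 95% confidence interval 0.47 to 1.71, adjusted p = 0.0227), or 2.13-fold. The adjusted p passed 0.05 when WT replicate 2 (0.0603) or Zip13-KO replicate 1 (0.0788), 2 (0.0630) or 3 (0.0607) was left out, with changes of 1.02 to 1.14. Nr1d1 read 9.48, 10.31 and 10.24 in WT and 10.71, 10.54 and 10.51 in Zip13-KO. Its Zip13-KO values were all above its WT values, but WT replicates 2 and 3 came close to them. The log2 fold change of 0.58 (SE 0.23, 95% confidence interval 0.02 to 1.14, adjusted p = 0.0984) was not called.

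**Figure D2:**
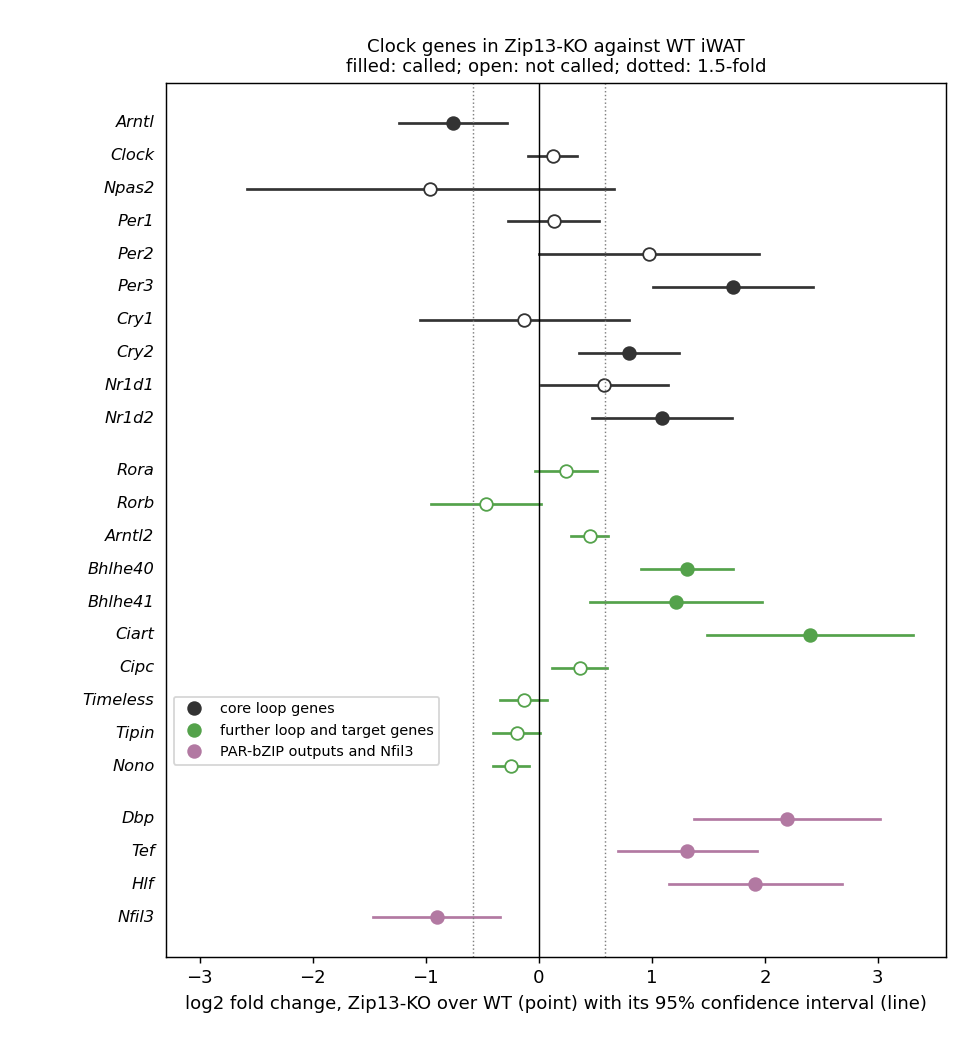
Log2 fold change of Zip13-KO over WT (x axis, points) with its 95% confidence interval (lines) for the core clock genes and for 10 further genes of the loop and its PAR-bZIP outputs. Filled points were called, and the dotted lines mark 1.5-fold. Per3, Cry2, Nr1d2, Ciart, Bhlhe40, Bhlhe41, Dbp, Tef and Hlf are filled on the right, Arntl and Nfil3 on the left.

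Set side by side on each array, the roles parted. Values here are means over the genes of a role of the log2 difference from each gene's WT mean. The Rev-erbs stood at -0.50, 0.11 and 0.39 on the WT arrays and at 0.97, 0.76 and 0.77 on the Zip13-KO arrays. The Per genes stood at -0.28, -0.33 and 0.61 in WT and at 0.85, 0.92 and 1.06 in Zip13-KO. Both roles were higher on each Zip13-KO array than on any WT array. Among the Per genes only Per3 did so by itself, while Per1 and Per2 overlapped. Over all genes tested, 55.1% had no overlap. The Cry genes overlapped, at 0.06, -0.36 and 0.30 against 0.47, 0.46 and 0.07, with Cry2 and the dim Cry1 differing. The activators, at 0.32, -0.14 and -0.18 against -0.14, -0.98 and -0.47, were drawn apart by the dim Npas2 on Zip13-KO replicate 2. With Arntl and Clock alone they stood at 0.17, 0.01 and -0.18 in WT and at -0.29, -0.28 and -0.38 in Zip13-KO.

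The median log2 fold change was -0.76 for the 3 activators, 0.97 for the 3 Per genes, 0.34 for the 2 Cry genes and 0.83 for the 2 Rev-erbs. The difference between the Rev-erb mean and Arntl on the same array was -0.92, 0.17 and 0.76 in WT and 1.72, 1.51 and 1.55 in Zip13-KO. The Per mean less Arntl was -0.71, -0.26 and 0.98 in WT and 1.60, 1.67 and 1.83 in Zip13-KO. On these differences within an array the genotypes did not overlap. The 3 WT arrays spread over more than the gap between WT replicate 3 and the nearest Zip13-KO array. Arntl alone already had no overlap, so the lack of overlap here is not separate evidence. The Cry mean less Arntl, at -0.37, -0.29 and 0.66 in WT and 1.23, 1.21 and 0.85 in Zip13-KO, had none either. The Cry mean by itself overlapped.

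**Figure D3:**
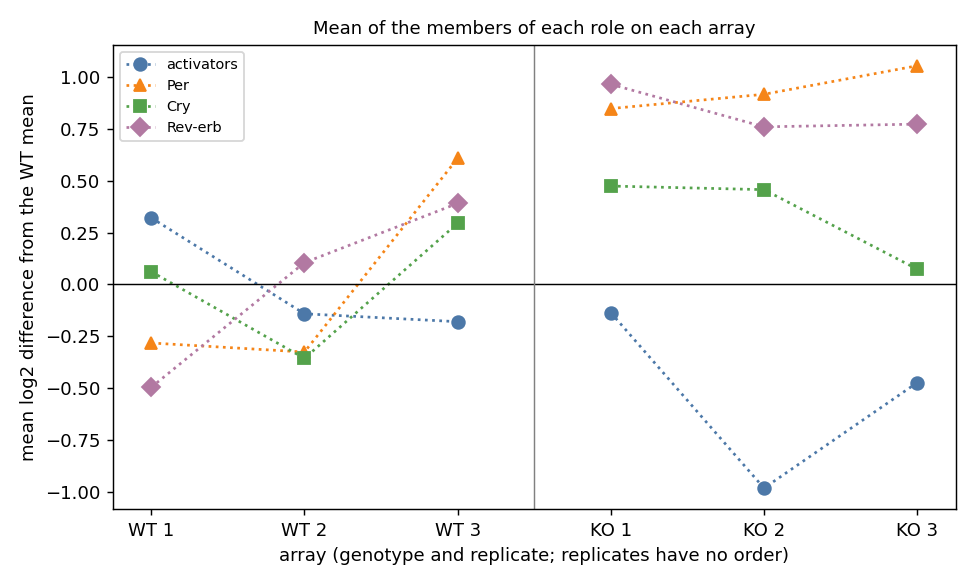
Mean log2 difference from the WT mean (y axis) over the genes of each role, on each array (x axis). Per and Rev-erb genes lie at 0.76 to 1.06 on the Zip13-KO arrays, above all WT arrays. On WT replicate 1 the activators stand at 0.32 and the Rev-erbs at -0.50.

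The WT arrays did not form a tight group for these genes. WT replicate 1 had the highest Arntl and the lowest Per3, Cry2, Nr1d1 and Nr1d2 of all 6 arrays. WT replicate 3 had the lowest Arntl of the WT arrays and their highest Per1, Per2, Per3, Cry2 and Nr1d2. The WT array farthest from the Zip13-KO mean was replicate 1 for 7 of the 10 genes, replicate 2 for 3 and replicate 3 for none. Over all genes tested it was replicate 1 in 53.5%, and in 73.2% of the genes called. The SD was larger in WT than in Zip13-KO for 7 of the 10 genes, as it was for 68.9% of genes tested. Its median was 0.488 in WT and 0.115 in Zip13-KO over the clock genes, and 0.156 and 0.0999 over all genes. The ratio of the WT to the Zip13-KO SD ran highest for Arntl (25.7) and Per2 (8.83).

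Zip13-KO replicate 1 was the only Zip13-KO array in the slide column of the WT arrays. Its difference from the WT mean was -0.75 for Arntl, 1.78 for Per3, 0.86 for Cry2, 0.70 for Nr1d1, 1.23 for Nr1d2 and 0.93 for Per2, close to the values over all arrays. For Clock it was 0.17, while Npas2 (0.17), Per1 (-0.16) and Cry1 (0.09) changed sign, none of them called. With the slide column as a block, none of the 10 genes was called, and over all genes 0 were higher and 7 lower.

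Around the core loop, 60 of 61 further clock genes were tested (Kmt2a was not), of which 11 were called higher and 2 lower. The share called, 21.7%, was near the 18.5% of all genes tested, and reads as no result about the whole set. Its median log2 fold change was 0.12, against -0.00 over all genes. Ciart encodes CHRONO, a repressor of BMAL1 and CLOCK that they switch on themselves. It read 3.88, 3.64 and 5.11 in WT and 6.61, 6.68 and 6.53 in Zip13-KO (log2 fold change 2.40, adjusted p = 0.00864), the largest change of the 60. Bhlhe40 and Bhlhe41, the DEC repressors that compete for E-boxes, rose by 1.31 (adjusted p = 0.00621) and 1.21 (adjusted p = 0.0299). Ciart and Bhlhe41 (4.20, 4.01 and 5.02 in WT) were dim in WT, though well above background on every array. The size of their changes with other handling of the background is not given here. Rora, a receptor that activates Arntl, had a log2 fold change of 0.24 (adjusted p = 0.141), and Rorb, at -0.46 (adjusted p = 0.119), had the lowest value of the loop genes outside the core. Neither was called.

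All 4 genes of the PAR-bZIP list were called, where 18.5% of all genes tested were. The list is short and was chosen with earlier results of these data known, so its share is a description only. Dbp, a direct target of BMAL1 and CLOCK, read 11.62, 12.21 and 13.00 in WT and 14.61, 14.29 and 14.53 in Zip13-KO (log2 fold change 2.20, adjusted p = 0.00832). Hlf rose by 1.92 (adjusted p = 0.00956) and Tef by 1.31 (adjusted p = 0.0134). Nfil3, which represses through the same D-box, read 10.83, 10.02 and 10.14 in WT and 9.20, 9.52 and 9.56 in Zip13-KO (log2 fold change -0.90, adjusted p = 0.0295). The order of the WT arrays in Dbp, Hlf and Tef was that of Per3, Cry2 and Nr1d2, with replicate 1 lowest and replicate 3 highest. It was not particular to clock genes, as the adipocyte gene Pparg had it too (12.57, 13.06 and 13.19 in WT). The share of all genes with this order was not counted.

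Genes that act on PER and CRY proteins moved little. Of 16 kinases, phosphatases and ubiquitin enzymes, 1 was called, Usp2, a deubiquitinase and itself a clock target (1.33, adjusted p = 0.00668). The median of the list was 0.02, and its lowest value was Csnk2a2 at -0.14. Of 9 coregulators tested none was called by limma, with values from -0.34 (Kdm5a) to 0.36 (Sirt1). Of these, 5 had an unadjusted p under 0.05 and 0 passed the fold threshold. Of 10 direct targets, Pck1 (0.71, adjusted p = 0.0119) and Por (0.65, adjusted p = 0.0229) were called higher and Ccnd1 (-0.62, adjusted p = 0.0171) lower. In the list of 11 glucocorticoid and cAMP targets, which share inputs with Per1, 1 was called, the orphan receptor gene Nr4a1 (1.25, adjusted p = 0.0118). The lowest was Fkbp5 at -0.49 (adjusted p = 0.246), and the median was 0.02. Zip13-KO replicate 1 stood apart in some genes of this list and not in others. Relative to the WT mean, its log2 difference was 2.57 for Fos, against -1.28 and -2.04 on replicates 2 and 3, and 2.21 for Egr1, against 0.05 and -0.06. These 2 immediate early genes and Junb (0.70 against -0.82 and -0.49) were named after their values were seen. For Nr4a1 it was 1.76, against 0.97 and 1.03. For Fkbp5 it went the other way, at -0.90 against -0.30 and -0.26. For Crem, also named after its values were seen, it was 0.21, against 0.23 and 0.22. For Per1 the values were -0.16, 0.27 and 0.29.

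**Figure D4:**
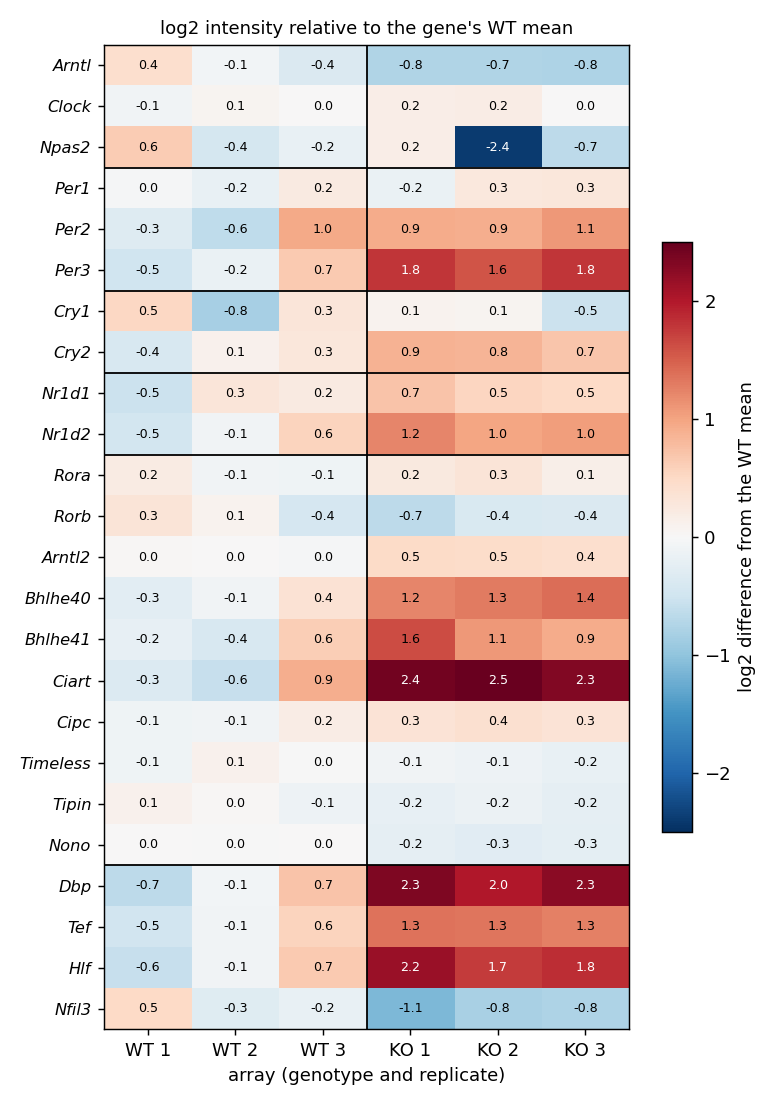
Log2 difference from each gene's WT mean (colour and printed value) for the core clock genes, further loop genes and PAR-bZIP genes (rows) on each array (columns). Per3, Cry2, Nr1d2, Ciart, Dbp, Tef and Hlf are red on all Zip13-KO arrays and lowest on WT replicate 1 or 2, while Arntl and Nfil3 run the other way.

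Among the genes whose pattern over the 6 arrays lay nearest to that of Arntl, by the root mean square difference of log2 values relative to the WT mean, were Slc39a6 (0.0626), E2f1 (0.0664), Zfp90 (0.0686) and Gli3 (0.0703). Nearest to Nr1d1 were Ell2 (0.0608), Popdc2 (0.0683), Gpr4 (0.0686), Mcur1 (0.0735) and Slc4a11 (0.0797). None of these is a member of the loop. Among the other 9 clock genes, Cry2 was nearest to Nr1d1, at rank 491, and Nr1d2 stood at rank 4823. The measure is a description of 6 arrays and takes in the size of the change as well as its shape.

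Markers of the cells in the tissue, of which the called ones were named after their values were seen, moved with genotype and, in part, with the clock genes among the WT arrays. In bulk tissue, fewer cells of a type and less RNA per cell cannot be told apart. Of 8 adipocyte markers, 3 were called higher (Plin1, Pparg and Lipe). Their summed level, the log2 of the summed intensities of the 8, was 18.40 to 18.79 in WT and 19.01 to 19.09 in Zip13-KO. The brightest probes weigh most in such a sum, and probes are not on 1 scale. Log2 fold changes ran from 0.20 (Fabp4) to 1.13 (Pparg). The mean of this list relative to WT was -0.53, 0.31 and 0.22 on the WT arrays and 0.76, 0.63 and 0.65 on the Zip13-KO arrays, low on WT replicate 1 as Nr1d1 was. Lep, not called, had the widest WT spread of the list (7.07, 9.98 and 9.73) and weighed most in the size of that mean. The other adipocyte markers were also lowest in WT on replicate 1. All 7 brown and beige markers were called higher, from Ppargc1a at 2.14-fold to Ucp1 at 35.7-fold, with summed levels of 15.13 to 15.82 in WT and 17.30 to 17.93 in Zip13-KO.

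Of 8 macrophage markers, 5 were called lower (Adgre1, Cd68, Csf1r, Mrc1 and Lyz2), and the 8 ran from -0.17 (Itgam) to -1.87 (Cd68), with summed levels of 16.08 to 16.73 in WT and 15.09 to 15.39 in Zip13-KO. Of 6 stromal progenitor markers, 3 were called lower (Pdgfra, Dpp4 and Ly6a), and the 6 ran from -0.40 (Dcn) to -1.37 (Ly6a). The stromal mean relative to WT was 0.43, 0.04 and -0.48 in WT and -0.85, -0.88 and -0.60 in Zip13-KO, and the macrophage mean was 0.35, -0.12 and -0.23 in WT and -1.03, -1.26 and -0.81 in Zip13-KO. Both lists ordered the WT arrays as Arntl did. The other marker lists did not, such as brown and beige (0.25, -0.48 and 0.23 in WT) and lymphocyte (-0.11, -0.13 and 0.24). Endothelial markers ran from -0.29 (Vwf) to 0.77 (Cdh5, the only 1 of 6 called). The lowest of 8 lymphocyte markers was Lck at -0.57. The 7 muscle markers ran from 0.15 (Mylpf) to 1.15 (Ckm), and 5 of mammary epithelium from -0.27 (Cdh1) to 0.89 (Krt5). In these 3 lists none was called by limma. An unadjusted p under 0.05 was found for 8 of the lymphocyte markers, all under the fold threshold, 1 of muscle and 1 of mammary epithelium. The part of these marker lists in the clock genes' differences was not tested.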

How the data were processed

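Total RNA from iWAT was hybridized to 6 Agilent mouse gene expression arrays (8x60K, 1 colour), 3 per genotype, grouped by the genotype in the labels. Per the file headers, the authors extracted each array with Feature Extraction 11.5.1.1, whose processed signal is an intensity corrected for background and slide trends but not normalized between arrays. The authors also deposited a table of log2 intensities, quantile normalized, used here only as an alternative. The deposited flags for outliers and for spots well above background (other values) served as filters.

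The processed signals were taken as log2, control and outlier spots were left out, replicate spots of a probe were averaged, and quantile normalization followed. A probe was kept when well above background on all 3 arrays of a genotype, which left 33047 of 55681 probes, of which 20319 had a symbol through RefSeq accessions (GRCm38.p6). The brightest kept probe stood for a gene. Genotypes were compared with limma 3.58.1 (lmFit and eBayes, R 4.3.3), with Benjamini-Hochberg adjustment over all 15307 genes. The code was tried on simulated independent values with planted changes, which does not test the adjustment on these arrays. The number of arrays limits the precision.

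The genes named are the 10 clock genes, the called genes and the extremes of each clock list, the 5 genes nearest to Arntl and to Nr1d1, the extremes of each marker list, and Slc39a13 and Ucp1 as checks. Members and lists were chosen with earlier results of these data known. Promoter letters were searched on both strands. The alternatives were 75th percentile scaling, normexp (offset 50) and no background correction on the median signal, the deposited table, other filters, probe averaging and variance models. Others were replicate number or slide column as a block, other thresholds, a t-test, genotype medians in place of means, and leaving out each array. The paper's methods combine a t-test with a median-ratio test, so the t-test here is not their full procedure. Some genes that this rule selects are not reported here.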

Additional observations from a re-analysis of the deposited data

How the results depend on the processing

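Arntl, Per3, Cry2 and Nr1d2 stayed called with 75th percentile scaling, normexp, no background correction and the deposited table. The same held for probes well above background on all 6 arrays, averaged probes and an intensity trend with a robust prior. These 4 genes also stayed called with no fold threshold and with a t-test without adjustment. The 4 called clock genes and probes became 0 at an adjusted p under 0.01 and 1 (Per3) with a t-test after Benjamini-Hochberg adjustment. With no filter 3 genes but 1 probe passed, and Arntl was lost (adjusted p = 0.0593). Replicate numbers did not pair the arrays (correlations of -0.0363, 0.000912 and -0.0330), and with the replicate block 1 gene and 1 probe were called, Per3, while Arntl (adjusted p = 0.0524), Cry2 (0.0553) and Nr1d2 (0.0527) fell just short. Leaving out each array in turn gave 1 to 5 called genes and 1 to 5 called probes. The 13 other clock genes called became 0 with the slide column, 20 with no fold threshold, 6 at an adjusted p under 0.01, 8 with the adjusted t-test and 8 to 15 on leaving out an array. The activator median depends on dim Npas2: it was -0.080 with normexp, -0.15 with no background correction, -0.15 from the deposited table, -0.32 with the filter on all 6 arrays, 0.17 with the slide column (a change of sign) and -0.94 to -0.24 on leaving out an array. That filter, which drops Cry1, moved the Cry median to 0.80. The Per median ran from 0.65 to 1.45, the Cry median from 0.16 to 0.48 and the Rev-erb median from 0.59 to 1.03 on leaving out an array. With the slide column Npas2 (0.17), Per1 (-0.16) and Cry1 (0.087) changed sign, and Cry1 ran from -0.54 to 0.13 on leaving out an array. Over all genes, 1565 higher and 1267 lower became 704 and 500 at an adjusted p under 0.01, 2951 and 2330 with no fold threshold, 1002 and 709 with the adjusted t-test, 949 and 768 on leaving out Zip13-KO replicate 1, 1009 and 780 on leaving out replicate 2, and 0 and 7 with the slide column. The causes of these shifts were not tested, other than the stricter or looser thresholds themselves and the single Zip13-KO array left in the WT slide column.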
